A study of Mus musculus with 15 samples.

Results

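Transcripts of the glycolytic enzymes were measured by RNA sequencing in hematopoietic stem cells (HSC), the bone marrow cells that renew themselves and give rise to all blood lineages. The enzymes were chosen by a fixed list of 10 genes, Hk1, Hk2, Gpi1, Pfkl, Pfkp, Aldoa, Pgk1, Pgam1, Pkm and Ldha, and 9 of them were analysed among the 16154 genes of the count table. Pgam1 was not analysed here. The libraries came from C57BL/6 mice labelled female, with 5 young mice aged 6 to 12 weeks, 5 untreated aged mice of 20 to 24 months and 5 aged mice of 20 to 24 months given nicotinamide riboside (NR), a precursor of NAD, at 3 mg/ml for 2 months. Each library was made from 20000 to 25000 cells of 1 mouse, sorted from bone marrow as Lin- Sca-1+ cKit+ CD150+ CD48- cells, and no young mice given NR were analysed here.

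Glycolysis breaks glucose down to pyruvate in the cytosol and yields ATP without oxygen. Hexokinase traps glucose in the cell, phosphofructokinase commits it to breakdown, and aldolase splits the sugar into triose phosphates. Phosphoglycerate kinase and pyruvate kinase make the ATP of the lower steps of the pathway, and lactate dehydrogenase turns pyruvate into lactate while giving NAD back from NADH. Glyceraldehyde phosphate dehydrogenase uses that NAD, so the pathway depends on the coenzyme that NR feeds. Young HSC reside in a marrow poor in oxygen, stay mostly out of cycle and are described as leaning on glycolysis. Many glycolytic genes are targets of the hypoxia factor HIF1 and of Myc, which binds the E box CACGTG. The DNA core bound by HIF1 was searched here in the form ACGTG only.

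The libraries differed in ways that bear on every comparison. Total counts ran from 2122221 to 3631395 in young, from 764119 to 13318989 in aged and from 2486399 to 3595384 in NR-treated aged HSC, and the lowest count behind any value of a member was 10, for Pgk1 in aged replicate 2. Young replicates 1 and 5 went against their label, with 104 and 108 CPM summed over 4 Y-linked genes, while the other 13 libraries held at most 3.16 CPM. The sorted cells expressed all 10 HSC markers examined, with sums of 1622 to 2024 CPM in young, 1894 to 2428 in aged and 1718 to 2213 in NR-treated aged HSC. Markers of other cells also moved with the groups. Erythroid markers (10 of 10 present) summed to 2323 to 4662 CPM in young, 5551 to 8984 in aged and 1958 to 3077 in NR-treated aged HSC, and B lineage markers (9 of 10) to 106 to 834, 606 to 4423 and 88.3 to 166. Neutrophil and granule markers (10 of 10) summed to 227 to 5630 CPM, 1547 to 2344 and 269 to 486, with young replicate 3 the highest. In the marker list of cycling cells (9 of 9), the sums were 1117 to 1719 CPM in young, 794 to 1262 in aged and 495 to 1150 in NR-treated aged HSC. The part these differences had in the results below was not tested, and in RNA from pooled cells fewer cells of a type cannot be told apart from less RNA per cell. CPM is the count divided by the library size in units of 1e6 reads, after TMM scaling, and because reads were taken near the 3′ end, levels are compared between libraries but not between genes.

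Aged HSC carried more transcript of 4 of the 9 enzymes than young HSC, and none was called lower in this fit. Hk1 was called lower by edgeR in a pair of alternatives given with its values. Hexokinase 2 (Hk2) rose 1.95-fold, lactate dehydrogenase A (Ldha) 1.5-fold, the platelet form of phosphofructokinase (Pfkp) 1.39-fold and aldolase A (Aldoa) 1.33-fold, in edgeR's quasi-likelihood test at an adjusted p under 0.05. Among all 16154 genes, 9.68% were called higher and 9.63% lower with age. No enzyme was called between NR-treated and untreated aged HSC, where 3.88% of all genes were called higher and 4.18% lower. Between NR-treated aged and young HSC, Ldha and Pfkp were called higher, against 2.56% of all genes called higher and 1.91% lower. The 3 comparisons share libraries, since each group enters 2 of them. Summed over the 9 enzymes, the transcripts made up 0.176 to 0.214% of all counts in young, 0.222 to 0.249% in aged and 0.211 to 0.265% in NR-treated aged HSC, a sum in which the counts of Ldha, Aldoa and Pkm weigh most.

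**Figure D1:**
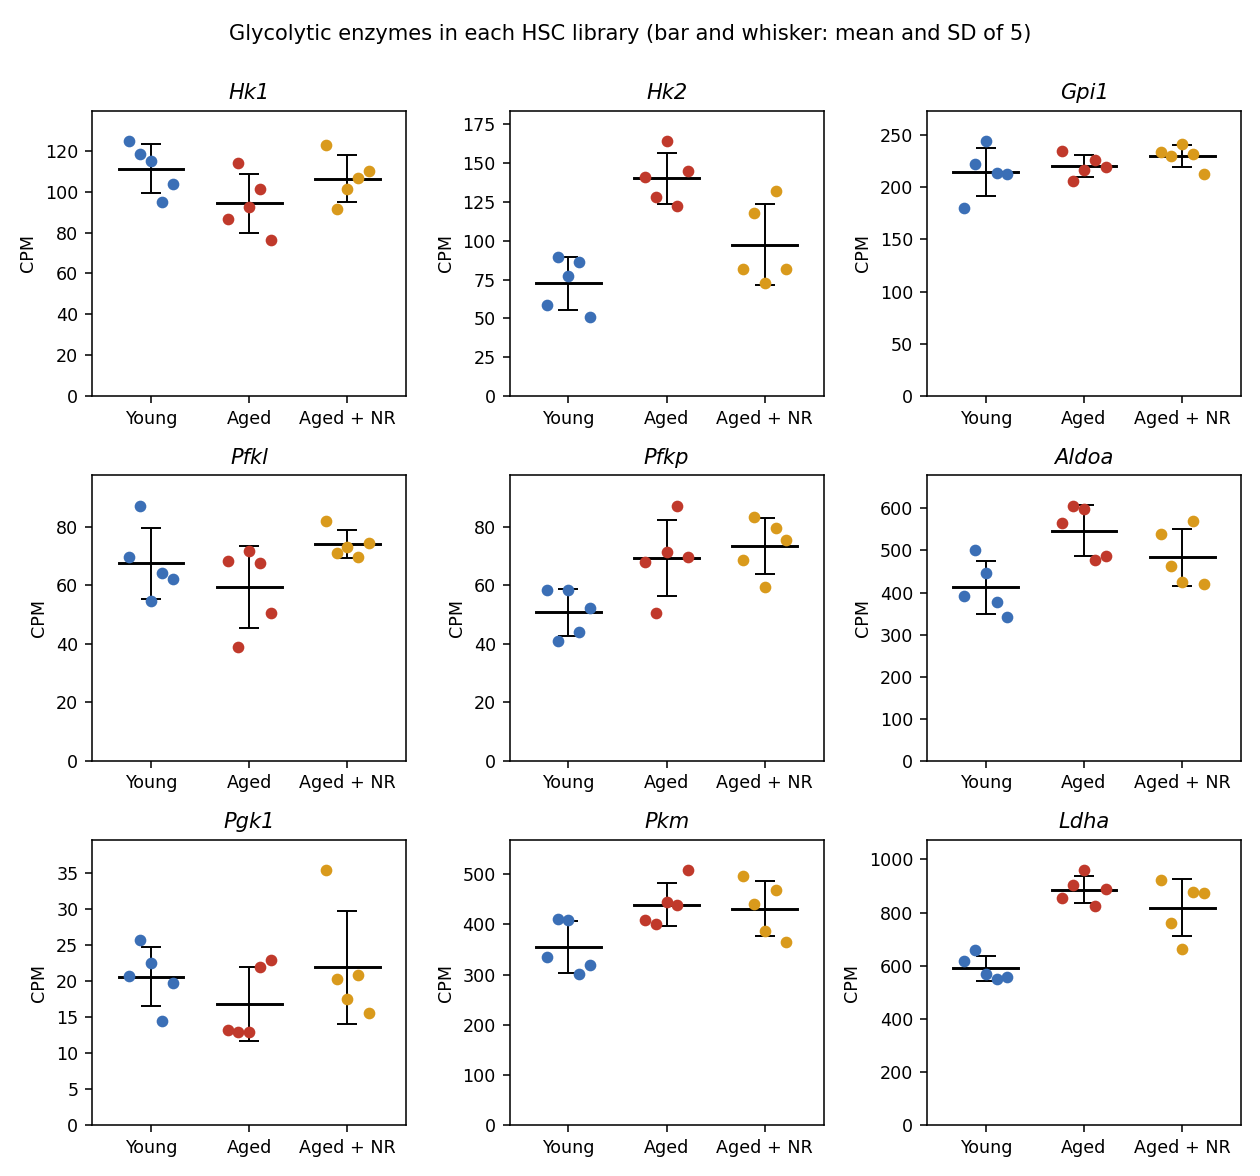
CPM (vertical axis, from 0) of the 9 glycolytic enzymes in each of the 15 libraries, with young in blue, aged in red and NR-treated aged HSC in yellow; points are single libraries in order of replicate number, bars are means and whiskers SD (n = 5). The aged points of Hk2 and Ldha lie above all young points, while those of every other enzyme, Pfkp, Aldoa and Pkm among them, overlap the young range.

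The stretches upstream of the start site of the 4 enzymes that rose with age are shown here because hypoxia and Myc motifs are known features of glycolytic promoters. Each is the 250 bases before an annotated start in RefSeq (GRCm38.p6), on the strand of the gene, 5′ to 3′, with ACGTG on either strand (read as CACGT on the other) in capitals. All 9 enzymes matched the RefSeq table. Several have more than 1 annotated start, and the reads do not tell which start was used.
Hk2, chr6:82774455-82774704, minus strand: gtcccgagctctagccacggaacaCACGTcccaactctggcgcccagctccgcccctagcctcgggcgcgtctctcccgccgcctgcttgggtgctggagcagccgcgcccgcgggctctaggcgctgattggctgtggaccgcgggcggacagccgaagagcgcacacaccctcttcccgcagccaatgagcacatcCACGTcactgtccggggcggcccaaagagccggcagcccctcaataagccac
Ldha, chr7:46845554-46845803, plus strand: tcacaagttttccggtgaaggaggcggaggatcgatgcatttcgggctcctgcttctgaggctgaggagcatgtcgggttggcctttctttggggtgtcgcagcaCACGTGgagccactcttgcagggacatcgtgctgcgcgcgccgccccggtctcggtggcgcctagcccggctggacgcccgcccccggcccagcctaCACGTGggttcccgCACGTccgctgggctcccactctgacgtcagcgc
Aldoa, chr7:126799255-126799504, minus strand: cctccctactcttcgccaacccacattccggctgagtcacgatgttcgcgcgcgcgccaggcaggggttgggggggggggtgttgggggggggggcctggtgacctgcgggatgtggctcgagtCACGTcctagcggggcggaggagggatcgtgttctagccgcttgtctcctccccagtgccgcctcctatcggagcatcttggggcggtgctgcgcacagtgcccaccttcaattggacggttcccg
Pfkp, chr13:6648772-6649021, minus strand: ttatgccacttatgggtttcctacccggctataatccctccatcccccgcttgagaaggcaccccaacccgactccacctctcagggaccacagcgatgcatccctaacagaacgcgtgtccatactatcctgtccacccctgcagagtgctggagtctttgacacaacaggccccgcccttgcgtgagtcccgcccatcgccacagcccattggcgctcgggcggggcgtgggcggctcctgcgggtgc
The Ldha stretch shown held 3 separate matches, beginning 145, 48 and 34 bases before the start, of which 2 were the full E box CACGTG (which holds ACGTG on both strands and was counted as 1 match). Hk2 had 2 matches, at 226 and 52 bases before its start, and the Aldoa start shown had 1, at 126 bases. The Pfkp stretch held no ACGTG on either strand, but it held the letters gcgtg, which were not searched. The stretch before the other Ldha start (chr7:46846832-46847081) held no match. For Aldoa, the stretch chr7:126800448-126800697 held none either. The remaining Aldoa stretch, chr7:126799179-126799428, overlapped that shown and held the same match. Of the 4 enzymes called higher with age, 3 had a match before at least 1 annotated start, and of the 5 not called, 2 did (Pgk1 and Pkm). Over all 27025 genes with such a stretch, 18.5% had ACGTG and 6.86% had CACGTG before at least 1 start. Those genes had 32851 stretches in all and were not limited to genes of the count table. A gene with more starts, such as Aldoa with 3, has more chances of a match. These are matches of letters, other forms of the HIF1 core were not searched, and binding of a factor was not measured.

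Hexokinase carries out the first step, and HSC expressed Hk1 and Hk2, which both sit on mitochondria in many cells. Hk2 (chromosome 6, 82725025 to 82774454, minus strand, GRCm38) is the form induced by insulin and hypoxia, and was the most changed enzyme of the list. In young HSC its level was 58.6, 89.6, 77.2, 86.3 and 51.0 CPM in replicates 1 to 5. Aged HSC had 141, 128, 164, 122 and 145 CPM. With NR the values were 81.9, 118, 72.7, 132 and 82.0 CPM. Every aged library lay above every young one, and the NR-treated libraries split, with replicates 1, 3 and 5 within the young range, replicate 4 within the aged range and replicate 2 between them. Hk2 was 1.95-fold higher in aged than in young HSC (log2 difference 0.96, SE 0.17, adjusted p = 0.000837 by edgeR). Hk2 and Ldha were the 2 enzymes whose aged and young libraries did not overlap in the upward direction, as did 6.86% of all genes. The 2 lowest young values were those of replicates 1 and 5, the libraries with Y-linked reads. Without both, Hk2 was still higher in aged HSC, with a log2 difference of 0.74 and adjusted p = 0.0144 by edgeR, while the difference of NR-treated aged from young HSC went from 0.43 to 0.20.

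The effect of NR on Hk2 stood at the edge of the test. The NR-treated mean was 97.4 ± 26.1 CPM against 140.1 ± 16.2 CPM in untreated aged HSC (SD, n = 5 each), a fold of 0.692 (log2 difference -0.53, 95% interval -0.89 to -0.17), with an unadjusted p of 0.00563 and an adjusted p of 0.0602 by edgeR's quasi-likelihood test. It was the only 1 of the 9 enzymes with an unadjusted p under 0.05 in this comparison, where 12.4% of all genes were lower at that p. The likelihood ratio test of edgeR, the test named in the study's methods, gave an adjusted p of 0.0433, DESeq2 0.0381 and limma-voom 0.0284. These tests called 5.14, 5.45 and 5.6% of all genes lower. Over 26 alternatives the log2 difference ran from -0.66 to -0.39 and the adjusted p from 0.0284 to 0.164, with 9 of them under 0.05. Between NR-treated aged and young HSC, Hk2 was not called (log2 difference 0.43, SE 0.17, adjusted p = 0.19 by edgeR), with an interval of 0.06 to 0.79.

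Hk1 (chromosome 10, 62268855 to 62379908, minus strand) is the widely expressed housekeeping hexokinase. Young libraries held 125, 119, 115, 94.7 and 104 CPM. Aged libraries had 86.6, 114, 92.6, 101 and 76.3 CPM, and NR-treated ones 123, 91.5, 101, 107 and 110.0 CPM. All groups overlapped, and the aged values lay mostly in the lower part of the young range or under it. The age difference was not called (log2 difference -0.26, SE 0.12, adjusted p = 0.137 by edgeR), with an unadjusted p of 0.0436. Hk1 was called lower with library totals in place of TMM (adjusted p = 0.0342) and when genes under 10 counts in any library were dropped (adjusted p = 0.0468), both by edgeR. The antisense gene Hk1os, which overlaps Hk1 on the opposite strand, fell with age from 11.0 ± 3.09 to 5.89 ± 1.91 CPM (SD, n = 5; adjusted p = 0.03 by edgeR), and since the strand setting of the counting is not given in the sources used here, reads of the pair may not be fully separated.

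The balance of the hexokinases shifted toward Hk2 with age. Because both counts come from the same library, their ratio does not depend on how libraries were scaled. The log2 ratio of Hk2 to Hk1 counts was -1.09, -0.40, -0.57, -0.13 and -1.02 in young, 0.70, 0.17, 0.82, 0.27 and 0.93 in aged, and -0.58, 0.37, -0.47, 0.31 and -0.42 in NR-treated aged HSC, for replicates 1 to 5. All young ratios were below 0 and all aged ratios above it. A log2 ratio of 0 marks equal counts and not equal transcript levels, since levels are not compared between genes. The means were 0.58 ± 0.34 in aged and -0.64 ± 0.41 in young HSC (SD, n = 5), a difference of 1.22 (two-sided exact permutation test, p = 0.00794, the smallest this design can give, and 0.0357 after Benjamini-Hochberg adjustment over 9 ratio tests). In NR-treated aged HSC the mean was -0.16 ± 0.46 (SD, n = 5), 0.74 below aged HSC, which did not pass after adjustment (exact permutation p = 0.0476, adjusted 0.1), and 0.48 above young HSC (exact permutation p = 0.135, adjusted 0.135). Without young replicates 1 and 5 the age difference was 0.95, and the ratios of the 3 other young libraries stayed below those of all aged ones.

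**Figure D2:**
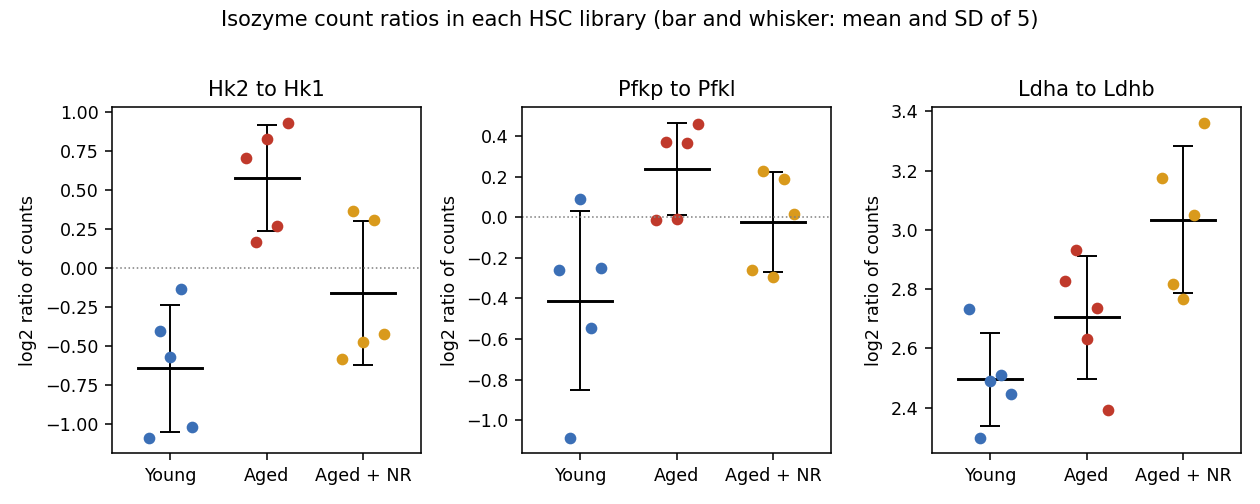
Log2 ratio of counts (vertical axis, 0.5 added to each count) of Hk2 to Hk1, Pfkp to Pfkl and Ldha to Ldhb in each library, young in blue, aged in red and NR-treated aged in yellow; bars are means and whiskers SD (n = 5), the dotted line marks equal counts, and the axes do not start at 0. Aged libraries lie above all young ones for Hk2 to Hk1, and NR-treated aged libraries lie above all young ones for Ldha to Ldhb.

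Gpi1 (chromosome 7, 34201330 to 34230336, minus strand), glucose phosphate isomerase, converts glucose 6-phosphate to fructose 6-phosphate and works near equilibrium. Its standard errors were the smallest of the list. Its level was 180.4, 223, 244, 213 and 213 CPM in young HSC. Aged HSC held 234, 206, 217, 226 and 219 CPM, and NR-treated HSC 233, 229.8, 241, 232 and 213 CPM. The 3 ranges overlapped, and no difference was called. The aged minus young log2 difference was 0.04 with an interval of -0.15 to 0.24, so a change beyond 0.24 on the log2 scale in either direction lay outside it. The NR-treated minus aged difference was 0.06 (-0.14 to 0.25). In the 3′ ends of its coding transcripts, 27.4% of 50-base words also occur in transcripts of 55 other genes, so reads may be shared, depending on how reads with several matches were treated.

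Phosphofructokinase, the committing step, is built from 3 isozymes, of which the liver form Pfkl (chromosome 10, 77986947 to 78010083, minus strand) and the platelet form Pfkp (chromosome 13, 6579768 to 6648777, minus strand) are on the list. Pfkp was at 58.3, 41.0, 58.4, 43.9 and 52.1 CPM in young HSC. It reached 67.9, 50.6, 71.4, 87.1 and 69.7 CPM in aged HSC. NR-treated HSC held 68.6, 83.5, 59.5, 79.6 and 75.4 CPM. Of the aged libraries, 4 lay above every young one and replicate 2, the shallowest library, did not, whereas all NR-treated libraries exceeded the young range. Pfkp rose with age (log2 difference 0.48, SE 0.14, adjusted p = 0.0239 by edgeR) and was not called between the aged groups (NR-treated minus aged 0.06, interval -0.23 to 0.35, adjusted p = 0.838 by edgeR). Against young HSC the NR-treated group was 1.45-fold higher (log2 difference 0.53, SE 0.14, adjusted p = 0.0345 by edgeR), and Pfkp and Ldha were the 2 enzymes without overlap in this comparison, as were 2.8% of all genes. The age call was lost without aged replicate 3 or 4 or young replicate 4, with adjusted p of 0.0534 to 0.071 by edgeR, and with library totals (0.0902). The call against young HSC in the NR-treated group was lost without NR-treated replicate 2, 4 or 5 or young replicate 2, 4 or 5 (0.0612 to 0.0918), without young replicates 1 and 5 together (0.0537) and with counts thinned to the shallowest library (0.093). Pitrm1, which meets the 3′ end of Pfkp from the opposite strand, was not called (16.8 ± 5.37 CPM in young and 17.4 ± 3.75 in aged HSC, SD, n = 5; adjusted p = 0.871 by edgeR).

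Pfkl gave 69.8, 87.2, 54.8, 64.2 and 62.0 CPM in young HSC. In aged HSC there were 68.5, 38.9, 71.8, 67.6 and 50.6 CPM, and with NR 82.2, 71.2, 73.1, 69.8 and 74.6 CPM. The NR-treated values were close together and lay inside the young range, and 3 of them exceeded every aged value. No difference in Pfkl was called (aged minus young -0.15, interval -0.45 to 0.16; NR-treated minus aged 0.28, interval -0.02 to 0.59). The log2 ratio of Pfkp to Pfkl averaged -0.41 ± 0.44 in young, 0.24 ± 0.23 in aged and -0.02 ± 0.25 in NR-treated aged HSC (SD, n = 5). Its rise of 0.65 with age did not pass after adjustment (exact permutation p = 0.0238, adjusted 0.0714), the ranges overlapping through young replicate 3. The muscle form Pfkm, which was not on the list, went the other way and fell with age from 36.3 ± 1.92 to 22.8 ± 3.34 CPM without overlap (log2 difference -0.66, SE 0.13, adjusted p = 0.00158 by edgeR), and stood at 26.7 ± 1.75 CPM with NR (SD, n = 5).

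Aldoa (chromosome 7, 126795234 to 126800751, minus strand), aldolase A, splits fructose 1,6-bisphosphate. It was at 391.96, 500.3, 447, 378 and 343 CPM in young HSC. The aged libraries held 566, 606, 598, 478 and 486 CPM, and the NR-treated ones 540.1, 464, 425, 569 and 420.4 CPM. Aged values were shifted upward but the lowest of them, from replicates 4 and 5, lay under the highest young value, and the NR-treated values overlapped both groups. Aldoa was 1.33-fold higher with age (log2 difference 0.41, SE 0.12, adjusted p = 0.0248 by edgeR). Of the 4 calls with age, this one was lost under the most alternatives (7 of 26, each judged at an adjusted p under 0.05). The Aldoa call was also lost at an adjusted p under 0.01. It was lost without young replicates 1 and 5 (log2 difference 0.31, adjusted p = 0.17 by edgeR), with library totals (0.0984), and without aged replicate 2 or 3 or young replicate 1, 4 or 5 alone (0.0538 to 0.0716). NR-treated HSC differed by -0.18 from aged (interval -0.43 to 0.08) and by 0.23 from young HSC (interval -0.02 to 0.49), neither being called. Of the 50-base words at its 3′ ends, 9.22% occur in transcripts of other genes.

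Pgk1 (chromosome X, 106187100 to 106203699, plus strand), phosphoglycerate kinase, makes the first ATP of the lower pathway. Its 3′ reads were few. Young HSC had 20.7, 25.7, 22.5, 14.5 and 19.7 CPM. Aged HSC had 13.1, 12.97, 12.9, 21.9 and 22.9 CPM, and NR-treated HSC 35.3, 20.3, 17.5, 20.8 and 15.5 CPM. Aged replicates 1, 2 and 3 lay below the young range and NR-treated replicate 1 above it, and the groups overlapped. No difference was called, and the intervals were the widest of the list (-0.77 to 0.23 for aged minus young, -0.13 to 0.85 for NR-treated minus aged).

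Pkm (chromosome 9, 59656368 to 59679375, plus strand), the pyruvate kinase of most cells other than liver and red cells, makes pyruvate and ATP, and its M1 and M2 splice forms cannot be told apart by a count per gene. The level in young HSC was 336, 410.3, 408, 300.4 and 319 CPM. It was 408, 401, 444, 438 and 507 CPM in aged and 496, 442, 387, 469 and 364 CPM in NR-treated aged HSC. Young replicates 2 and 3 reached the lower aged values, and the NR-treated range covered that of the aged group nearly in full. The age difference missed the threshold by edgeR (log2 difference 0.31, SE 0.12, adjusted p = 0.0654) with an interval of 0.07 to 0.55, while DESeq2 gave an adjusted p of 0.0441 and limma-voom 0.0376. It was also called without young replicate 2 or 3 (0.0316 and 0.038 by edgeR). NR-treated and untreated aged HSC differed by -0.03 (interval -0.27 to 0.21, adjusted p = 0.91 by edgeR). Of the 50-base words at its 3′ ends, 19.3% occur in 6 pseudogenes, none of which is a row of the count table.

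Ldha (chromosome 7, 46841475 to 46855627, plus strand), the muscle subunit of lactate dehydrogenase, favours the making of lactate. Young libraries had 617, 657, 568.1, 551 and 557 CPM. Aged libraries had 857, 906, 958, 825 and 888 CPM. With NR there were 923, 759.9, 663, 876 and 874 CPM. Both aged groups exceeded every young library, and only NR-treated replicate 3 came near the young range. Ldha was 1.5-fold higher in aged HSC (log2 difference 0.59, SE 0.10, adjusted p = 0.00055 by edgeR) and 1.39-fold higher in NR-treated aged HSC (log2 difference 0.47, SE 0.10, adjusted p = 0.00845 by edgeR) than in young HSC. Between the aged groups the difference was -0.11 with an interval of -0.33 to 0.10 (adjusted p = 0.508 by edgeR). Without young replicates 1 and 5 the age difference kept its size (log2 difference 0.58, adjusted p = 0.00811 by edgeR), and the NR-treated minus young difference was 0.47 with an adjusted p of 0.0518. Transcripts of 13 pseudogenes share 12.8% of the 50-base words at its 3′ ends, and none of them is a row of the count table.

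Ldhb, the heart subunit that favours the use of lactate, was called in both comparisons with aged HSC. Its level was 92.6, 133, 101, 96.5 and 102 CPM in young, 121, 118, 155, 124 and 169 CPM in aged and 102, 108, 97.2, 106 and 85.0 CPM in NR-treated aged HSC. The NR-treated libraries all lay below the aged ones, while the young and aged ranges overlapped. Ldhb rose with age (log2 difference 0.39, SE 0.13, adjusted p = 0.0345 by edgeR) and fell with NR (log2 difference -0.47, SE 0.13, adjusted p = 0.0283 by edgeR). The log2 ratio of Ldha to Ldhb was 2.50 ± 0.16 in young, 2.70 ± 0.21 in aged and 3.03 ± 0.25 in NR-treated aged HSC (SD, n = 5). NR-treated aged and young libraries did not overlap and differed by 0.54 (exact permutation p = 0.00794, adjusted 0.0357), whereas aged minus young was 0.21 (exact permutation p = 0.111, adjusted 0.135) and NR-treated minus aged 0.33 (exact permutation p = 0.0556, adjusted 0.1). A single pseudogene shares 29.2% of the 50-base words at the 3′ ends of Ldhb.

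**Figure D3:**
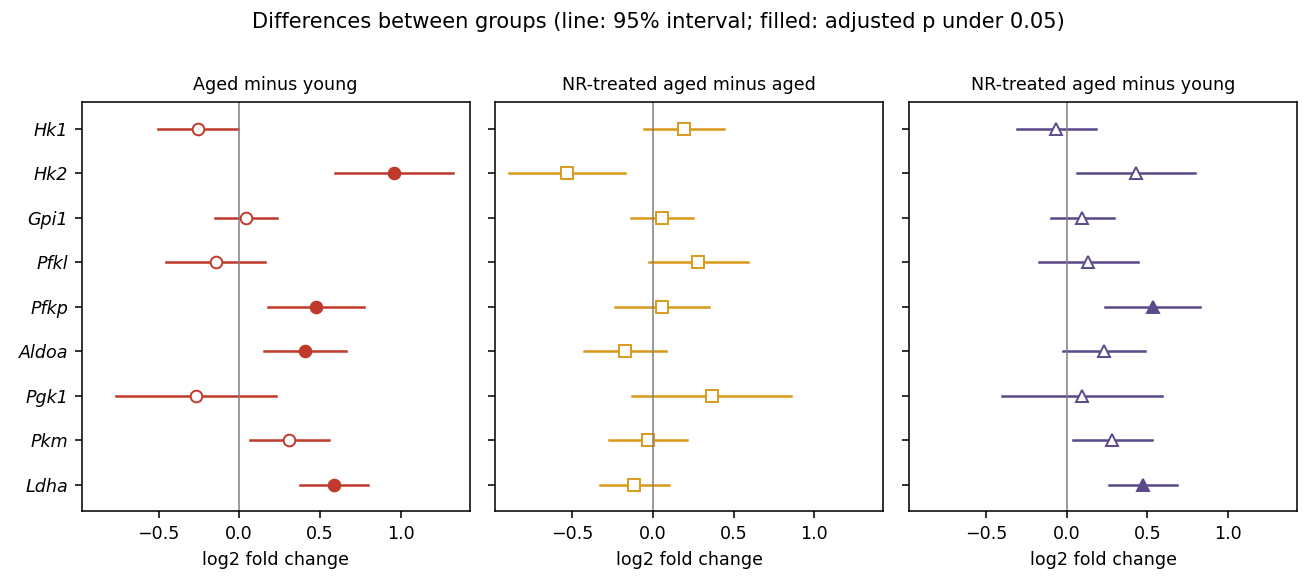
Log2 fold change (horizontal axis) of the 9 enzymes in the 3 comparisons, with 95% intervals from edgeR's quasi-likelihood fit of all 15 libraries; filled symbols have an adjusted p under 0.05 over all genes. Aged minus young has 4 filled symbols, all to the right of 0, NR-treated aged minus aged has none, and NR-treated aged minus young has those of Pfkp and Ldha.

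The median log2 difference of the 9 enzymes was 0.31 between aged and young HSC, 0.06 between NR-treated and untreated aged HSC and 0.23 between NR-treated aged and young HSC, beside -0.03, 0.02 and -0.005 over all genes. Scaling moved these medians. With library totals in place of TMM the median of all genes moved to -0.16 for aged minus young and to 0.16 for NR-treated minus aged, the share of called genes that were higher went from 50.1 to 29.1% and from 48.1 to 78.4%, and the medians of the 9 enzymes became 0.19 and 0.19. Relative to the median of all genes, the enzymes were 0.34 higher with age with TMM and 0.35 higher with library totals, and 0.04 and 0.03 higher with NR.

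Other genes of glucose metabolism were examined as 6 lists of 91 genes in all, of which 75 were tested. With age 9 of the 75 were called higher and 4 lower, with NR 1 higher and 6 lower, and between NR-treated aged and young HSC 5 higher and 2 lower. Over all genes the shares called higher and lower were 9.68 and 9.63% with age, 3.88 and 4.18% with NR, and 2.56 and 1.91% between NR-treated aged and young HSC. Beside the enzymes above, 14 of 21 further glycolytic enzymes and isozymes were tested, and 2 rose and 1 fell with age (median log2 difference 0.07). Of the steps between aldolase and pyruvate kinase, Tpi1, Gapdh and Eno1 gave no call in any comparison. Triose phosphate isomerase (Tpi1) was at 206 ± 35.2 CPM in young and 205 ± 15.1 in aged HSC, the dehydrogenase Gapdh at 61.9 ± 6.23 and 54.1 ± 19.5, and enolase 1 (Eno1) at 60.1 ± 14.8 and 55.0 ± 13.8 (SD, n = 5 each). Gapdh and Eno1 are uncertain, since 63.2 and 68.1% of the 50-base words at their 3′ ends occur in other transcripts, most of them pseudogenes. Ldhd, which acts on D-lactate in mitochondria, rose from 4.24 ± 0.509 CPM in young to 10.9 ± 0.855 in aged HSC (log2 difference 1.36, SE 0.23, adjusted p = 0.000405 by edgeR) and was at 10.8 ± 2.81 CPM with NR (SD, n = 5), also above young HSC (log2 difference 1.34, SE 0.23, adjusted p = 0.00116 by edgeR). Bpgm, which makes the 2,3-bisphosphoglycerate of red cells, fell with NR from 56.0 ± 5.77 to 31.6 ± 7.80 CPM (SD, n = 5; log2 difference -0.81, SE 0.17, adjusted p = 0.00866 by edgeR). With age Bpgm was not called (log2 difference 0.34, SE 0.17, adjusted p = 0.164 by edgeR). The erythroid marker sums were lower with NR and higher with age, and their part in the Bpgm values was not tested.

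Among 11 tested glucose and lactate transporters and their chaperones (of 12), 1 rose and 1 fell with age, beside 9.68 and 9.63% of all genes. Embigin (Emb), a chaperone of monocarboxylate transporters, rose from 99.3 ± 39.7 to 148 ± 22.4 CPM with age and was at 74.6 ± 9.81 CPM with NR (SD, n = 5), a fold of 0.5 against untreated aged HSC (adjusted p = 0.0312 and 0.0059 by edgeR). The young and aged ranges of Emb overlapped, with young replicate 3 at 167 CPM and the other young libraries at 68.4 to 100 CPM. Young replicate 3 was also the highest young library in the neutrophil, B lineage and erythroid marker sums. The part of such cells in the Emb values was not tested. Slc16a6, a carrier of the monocarboxylate family, fell with age (log2 difference -0.61, SE 0.19, adjusted p = 0.0332 by edgeR), and its NR-treated minus aged difference of 0.52 was not called. The sugar transporter Slc2a8 was higher in NR-treated aged than in young HSC (log2 difference 0.85, SE 0.23, adjusted p = 0.0418 by edgeR), with overlapping ranges.

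Of 24 regulators, 23 were tested, and 4 rose and 1 fell with age (median 0.03), beside 9.68 and 9.63% of all genes. Pfkfb3, which makes the fructose 2,6-bisphosphate that activates phosphofructokinase, rose from 29.0 ± 4.32 to 47.5 ± 12.2 CPM (log2 difference 0.76, SE 0.17, adjusted p = 0.00517 by edgeR) and stayed above young HSC with NR, at 45.3 ± 8.28 CPM (SD, n = 5; adjusted p = 0.04 by edgeR). Pfkfb2, a second enzyme of that kind, was called in NR-treated aged against young HSC (log2 difference 0.68, SE 0.19, adjusted p = 0.0439 by edgeR). Txnip, an inhibitor of glucose uptake, rose with age (log2 difference 0.42, SE 0.12, adjusted p = 0.0203 by edgeR) and was also higher in NR-treated aged than in young HSC (log2 difference 0.49, SE 0.12, adjusted p = 0.02 by edgeR). The aged and young ranges of Pfkfb3 and Txnip overlapped, while their NR-treated libraries all lay above the young ones. Like Ldha and Pfkp, Pfkfb3, Txnip and Ldhd were called higher than in young HSC in both aged groups and were not called between these groups.

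Foxk1, a forkhead factor known to raise glycolytic genes, had 33.3, 39.8, 41.3, 38.1 and 34.5 CPM in young, 45.8, 46.7, 55.3, 73.6 and 56.4 in aged and 37.0, 39.4, 28.4, 39.1 and 48.2 in NR-treated aged HSC. It rose with age (log2 difference 0.59, SE 0.15, adjusted p = 0.0107 by edgeR) and fell with NR (log2 difference -0.54, SE 0.15, adjusted p = 0.0325 by edgeR), although the aged and NR-treated ranges met. Its paralog Foxk2 fell with age (log2 difference -0.71, SE 0.21, adjusted p = 0.0233 by edgeR). Of the hypoxia factors, Epas1, which encodes HIF2α, rose from 2.20 ± 1.51 to 6.24 ± 0.734 CPM (SD, n = 5; log2 difference 1.54, SE 0.48, adjusted p = 0.0292 by edgeR) with as few as 2 counts in a young library, under the 3 counts taken as the floor, while Hif1a was called lower in NR-treated aged than in young HSC (log2 difference -0.48, SE 0.13, adjusted p = 0.0413 by edgeR). With age Hif1a was not called (log2 difference -0.20, SE 0.13, adjusted p = 0.294 by edgeR), although every aged library lay below every young one. Myc was not called with age either (log2 difference -0.32, unadjusted p = 0.0137, adjusted p = 0.063 by edgeR). Akt1, a kinase that promotes glucose uptake, was the 1 listed gene called higher with NR (log2 difference 0.51, SE 0.16, adjusted p = 0.0478 by edgeR). Its ranges overlapped, at 35.0 to 55.8 CPM in aged and 53.3 to 94.6 CPM in NR-treated aged HSC.

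Where pyruvate enters mitochondria, 13 of 14 genes were tested, with 2 called higher with age and 2 lower with NR (median log2 differences 0.15 and -0.18), beside 9.68 and 4.18% of all genes. Pdp1, the phosphatase that switches pyruvate dehydrogenase on, rose 2.11-fold with age, from 34.0, 35.0, 31.0, 21.4 and 29.1 CPM in young to 53.2, 59.7, 74.5, 65.6 and 62.9 in aged HSC. NR-treated aged HSC had 44.9, 37.0, 28.4, 44.6 and 33.2 CPM. Every aged library lay above all others (log2 difference 1.08, SE 0.16, adjusted p = 8.75e-05 against young, and log2 difference -0.75, SE 0.15, adjusted p = 0.00846 for NR-treated minus aged, by edgeR). Pdk3, a kinase that switches the same enzyme off, also rose with age (log2 difference 0.45, SE 0.12, adjusted p = 0.0152 by edgeR). Pdp2, a second phosphatase, fell with NR (log2 difference -0.34, SE 0.10, adjusted p = 0.0443 by edgeR), with overlapping ranges. None of the 4 gluconeogenesis enzymes tested (of 8) was called in any comparison by edgeR, DESeq2 or limma-voom. Pck2, which makes phosphoenolpyruvate, was the single one with an unadjusted p under 0.05 by edgeR (aged minus young log2 difference -0.26, adjusted p = 0.128). In the pentose phosphate pathway 10 of 12 genes were tested. Transketolase (Tkt), which links that branch back to glycolysis, fell with age from 318 ± 32.4 to 217 ± 49.3 CPM, with overlapping ranges (SD, n = 5; log2 difference -0.54, SE 0.15, adjusted p = 0.0134 by edgeR). Prps2, which makes the ribose donor for nucleotides, was lower in NR-treated aged than in young HSC (log2 difference -0.57, SE 0.16, adjusted p = 0.0419 by edgeR).

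**Figure D4:**
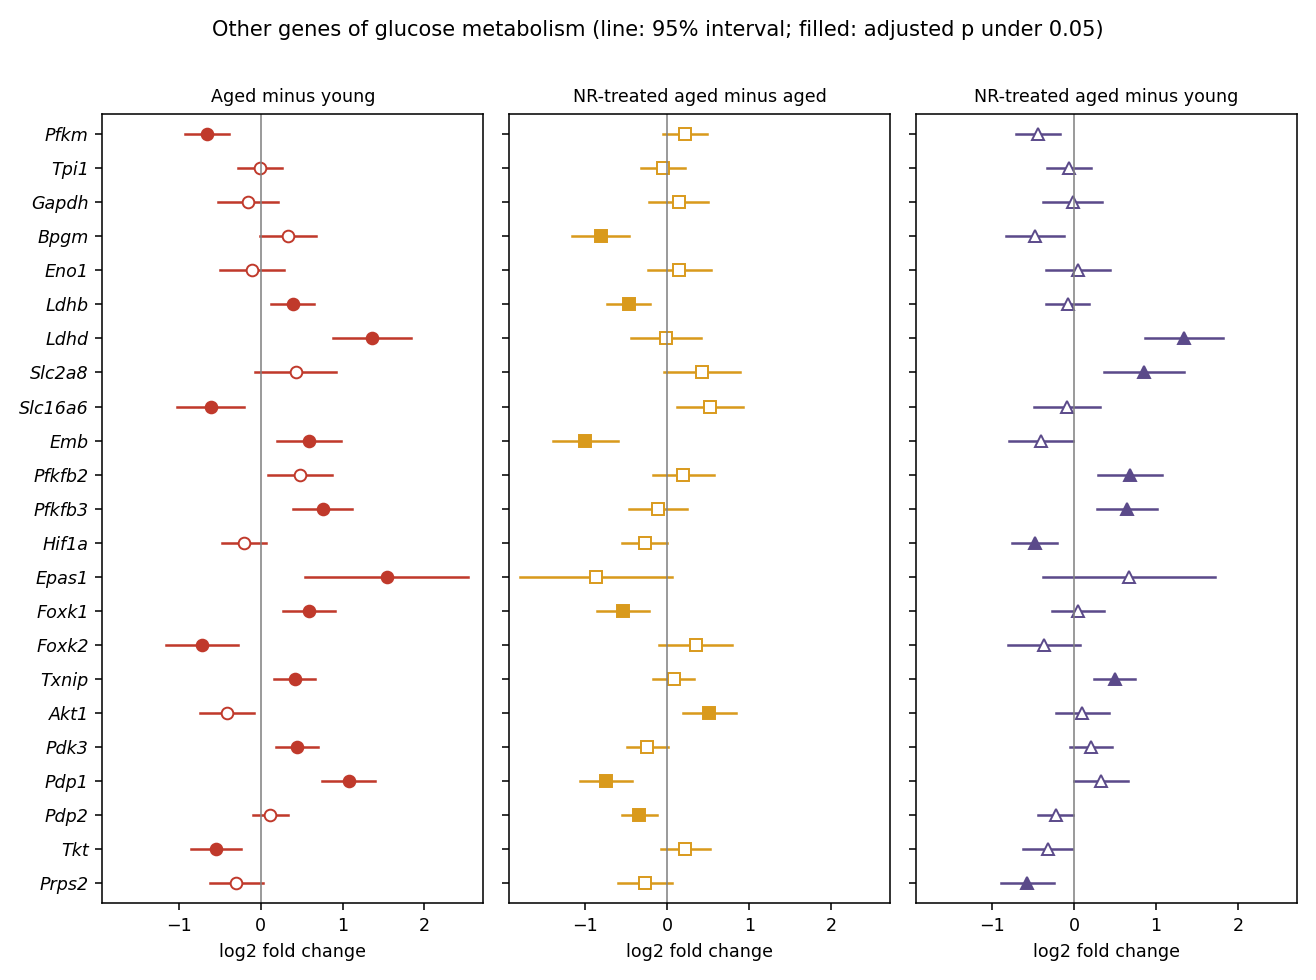
Log2 fold change (horizontal axis) with 95% intervals for 23 other genes of glucose metabolism, in the 3 comparisons; filled symbols have an adjusted p under 0.05 by edgeR over all genes. Pdp1, Emb, Foxk1 and Ldhb are filled to the right of 0 for aged minus young and to the left for NR-treated aged minus aged, while Ldhd, Pfkfb3 and Txnip are filled to the right in both comparisons with young.

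Ordered by the group means, the young group was lowest for Hk2, Gpi1, Pfkp, Aldoa, Pkm and Ldha, and the aged group was lowest for Hk1, Pfkl and Pgk1. For Hk2, Aldoa, Pkm and Ldha the NR-treated mean lay between the other two, and for Hk1 likewise. In none of these 5 did the NR-treated and the untreated aged libraries separate, and of their neighbouring means only those of young and NR-treated aged HSC for Ldha passed edgeR's quasi-likelihood test. Among the other 4 enzymes, the neighbours that passed were young and aged HSC for Pfkp.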

How the data were processed

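RNA was measured in HSC of 15 mice, 5 per group, grouped by the titles of the samples. Per the labels, libraries were 3′ biased and carried a UMI of 10 bp. The authors aligned reads with STAR (2.4.2a in the submitters' processing notes) to GRCm38, removed duplicated UMIs, counted exons of GENCODE vM15 genes with featureCounts, filtered out genes of low count (their limits were 5 reads and 2 CPM), and deposited whole-number counts without normalisation. The strand setting and the treatment of reads with several matches are not given in the sources used here. Library totals ran from 764119 to 13318989, so 3 counts, taken as the floor, equal 3.93 CPM in the shallowest and 0.225 CPM in the deepest library, for counting error only.

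Counts were tested with edgeR 4.0.16 in R 4.3.3 (TMM, 1 fit of all 15 libraries with group as the only factor, quasi-likelihood test, Benjamini-Hochberg over all 16154 genes, adjusted p under 0.05). The study used the likelihood ratio test, which is an alternative here. Intervals are 95%, from the SE and the t distribution of the fit. Isozyme ratios are log2 of counts plus 0.5 and were compared by a two-sided exact permutation test over 252 arrangements. P-values set the difference between groups against the spread between libraries, each made from a single mouse. That spread also holds differences in depth and cell content between libraries. Positions and shared 50-base words (in the last 500 bases of coding transcripts) come from GENCODE M21, and upstream stretches from RefSeq, both on GRCm38. Of the 15 pairs formed by libraries with the same number in different groups, deviations from group means correlated by 0.00212 on average (-0.27 to 0.133), and no label ties them, so replicate numbers were not treated as pairs.

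The members, lists and tests were chosen with earlier results of these data known. Named are all 9 members, every gene of the 6 lists with an adjusted p under 0.05 in any comparison, Gapdh, Tpi1, Eno1 and Ldhb whatever their p, and genes a result turns on. Lists fixed for cell markers were HSC, CD48+ progenitors, neutrophils, B lineage, erythroid, T and NK, macrophage, megakaryocyte and cycling cells. Those not given with the results summed to 166 to 250 CPM in young, 85.6 to 126 in aged and 77.1 to 98.4 in NR-treated aged HSC (CD48+ progenitors, 4 of 4 present), to 96.3 to 172, 80.1 to 109 and 42.0 to 150 (T and NK, 5 of 7), to 378 to 2572, 700 to 1673 and 302 to 499 (macrophage, 8 of 8) and to 596 to 727, 749 to 1133 and 560 to 1494 (megakaryocyte, 6 of 6). Alternatives were the likelihood ratio test, DESeq2 1.42.0, limma-voom 3.58.1, library totals, DESeq2 size factors, a filter that dropped genes under 10 counts in any library (leaving 8444), only the 2 groups compared, the replicate number as a block, counts thinned to the smallest total, an adjusted p under 0.01, 2 counts added in ratios, no young replicates 1 and 5, and each library left out in turn.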

Additional observations from a re-analysis of the deposited data

Results flagged for a closer look

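In 105 groups of 5 libraries examined (the 9 enzymes and the other named genes, per group), 10 had a library far from the other 4, judged by the gap to its nearest neighbour over the range of the group (Dixon's test), where chance flags about 1 in 20. NR-treated replicate 1 was the highest of its group for Pgk1 (35.3 CPM against 15.5 to 20.8 in the others), Tpi1 (259 CPM against 174 to 193), Gapdh (69.8 CPM against 56.6 to 60.3) and Foxk2 (24.3 CPM against 11.4 to 14.4). NR-treated replicate 3 was highest for Bpgm, with 45.1 CPM against 25.9 to 31.3. In young HSC, replicate 1 was highest for Pfkm (39.7 CPM against 35.0 to 35.9), replicate 2 for Ldhb (133 CPM against 92.6 to 102), and replicate 3 was lowest for Tkt (262 CPM against 322 to 342). In aged HSC, replicate 5 was highest for Pdk3 (117 CPM against 101 to 103), and the shallow replicate 2 for Prps2 (68.8 CPM against 39.6 to 44.9). Among the 9 enzymes of the list, Pgk1 was the only one so flagged.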

How the results depend on the processing

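Hk2 and Ldha were called higher with age under all 26 alternatives. The count of enzymes called with age was 2 at an adjusted p under 0.01 and 2 to 5 with 1 library left out, with 2 (Hk2 and Ldha) without aged replicate 3 or young replicate 4. Between NR-treated and untreated aged HSC the count of 0 became 1, Hk2, with the likelihood ratio test, DESeq2, limma-voom, only the 2 groups compared and no young replicates 1 and 5, and was 0 to 1 with 1 library left out, being 1 without NR-treated replicate 4 or young replicate 2 or 5 (adjusted p = 0.0424, 0.0498 and 0.0493 by edgeR). Between NR-treated aged and young HSC the count of 2 became 1, Ldha, with thinned counts and at an adjusted p under 0.01, 0 without young replicates 1 and 5, and was 1 to 2 with 1 library left out, Pfkp being lost without NR-treated replicate 2, 4 or 5 or young replicate 2, 4 or 5. With the replicate block, the counts were 4, 1 (Hk2, log2 difference -0.58, adjusted p = 0.0453 by edgeR) and 1 (Ldha, with Pfkp lost at 0.54, adjusted p = 0.0613 by edgeR), and the block changed no other call.

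Small differences changed sign, none of them called. For aged minus young, Gpi1 was -0.0216 after dropping genes under 10 counts in any library, -0.0820 with library totals, -0.0370 without young replicates 1 and 5 and -0.0151 to 0.0938 with 1 library left out. For NR-treated minus aged, thinned counts gave -0.0191 for Gpi1, -0.0028 for Pfkp and 0.0235 for Pkm, library totals 0.109 for Pkm and 0.0174 for Ldha, the filter on 10 counts 0.0450 for Pkm, and leaving out 1 library -0.0119 to 0.1496 for Pfkp and -0.0719 to 0.0287 for Pkm. For NR-treated aged minus young, thinned counts gave -0.0170 for Gpi1 and -0.25 for Pgk1, which ran from -0.15 to 0.20 with 1 library left out. The ratio of Hk2 to Hk1 between aged and young HSC was 1.43 thinned, 0.95 without young replicates 1 and 5 and 1.11 to 1.35 with 1 library left out, that of Ldha to Ldhb between NR-treated aged and young HSC 0.64, 0.60 and 0.46 to 0.61, and that of Pfkp to Pfkl with age 0.48 to 0.77. With 4 against 5 libraries the exact test cannot reach as small a p, so a lost ratio call there says nothing on stability. Of the values of single members, 379 of 405 with 1 library left out and 266 of 297 under other alternatives kept direction and call.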
